A study of Homo sapiens with 12 samples.

Results

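The HOX cluster genes encode homeodomain transcription factors that lie side by side in clusters A, B, C and D and are numbered by paralogous group within them. They were selected by symbol, as HOX followed by the letter of a cluster and a number, and each gene was represented by its brightest probe set with a single gene symbol. Of 19775 genes measured in this way, 28 were HOX cluster genes. They comprised 1 gene of cluster A, 10 of cluster B, 9 of cluster C and 8 of cluster D. Another 11 genes of the RefSeq table, HOXD3 and 10 genes of cluster A, were not analysed here.

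The cells were SK-OV-3, an established human ovarian cancer line that carries an amplified ERBB2 gene. RNA was taken after 24 h from 12 cultures, labelled biological replicates, and each was measured on its own array, in 4 groups of 3. The cultures of the PBS group received phosphate-buffered saline alone. The BMP2 group received recombinant BMP2, a bone morphogenetic protein of the TGF-beta family, at 100 ng/ml. The DM group received the agent that the labels call DM at 5 µM, and the BMP2+DM group received both agents at those doses. All groups were a single cell line at 1 dose and 1 time, and no untreated culture without PBS was analysed here.

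HOX genes are known for setting positional identity along the body axis, and within a cluster the order of the genes matches the order in which they are used along that axis. HOX proteins bind DNA together with TALE partners such as PBX and MEIS proteins. Silent clusters are held by Polycomb complexes, active ones are kept open by trithorax-type methyltransferases, and retinoic acid switches on the genes at one end of each cluster. In the female reproductive tract, HOX genes pattern the Müllerian duct, and HOX genes that the ovarian surface lacks are often found expressed in epithelial ovarian cancers.

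The arrays had been scaled to a common level, with 2% trimmed means between 495.8 and 496.1, and their median signals ran from 86.7 to 112. BMP2 replicate 1 had the highest median signal. The mean Pearson correlation of an array with the others of its group, across genes, was 0.934 to 0.941 for the 3 BMP2 arrays and 0.949 to 0.956 for the other 9, so the BMP2 group was the least alike. The 4 ID genes, which are direct BMP targets, were all higher with BMP2 than with PBS and all lower with DM than with PBS. All 6 epithelial and SK-OV-3 markers were above the filter described next, whereas 1 of 8 endothelial, 2 of 10 fibroblast and 2 of 7 measured leukocyte markers were. Of the 6 mesothelial markers 4 were above it, MSLN, CALB2, LRRN4 and PDPN.

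A gene was called dim when its geometric mean signal over the 12 arrays was below 69.8, the median of all probe sets. Of the 28 HOX genes, 18 were above it, which is 64.3%, against 64.1% of all genes. The 10 dim HOX genes were HOXA2, HOXB1, HOXC4, HOXC8, HOXC10, HOXC11, HOXC13, HOXD10, HOXD11 and HOXD12. The genes just inside were HOXC5 at 75.7 and HOXD4 at 76.7, and the gene just outside was HOXC11 at 68.1. These are values of different probe sets, so they do not rank the genes by transcript abundance.

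The clusters differed in how many genes were above the filter. In cluster B, 9 of 10 genes were above it, and 8 of them were above it on all 12 arrays. In cluster C these counts were 4 and 1 of 9 genes, and in cluster D they were 5 and 2 of 8 genes. Over all genes measured, 52.1% were above the filter on every array. In cluster A only HOXA2, which patterns the second branchial arch, was measured, and its signal ran from 3.39 to 171.

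**Figure D1:**
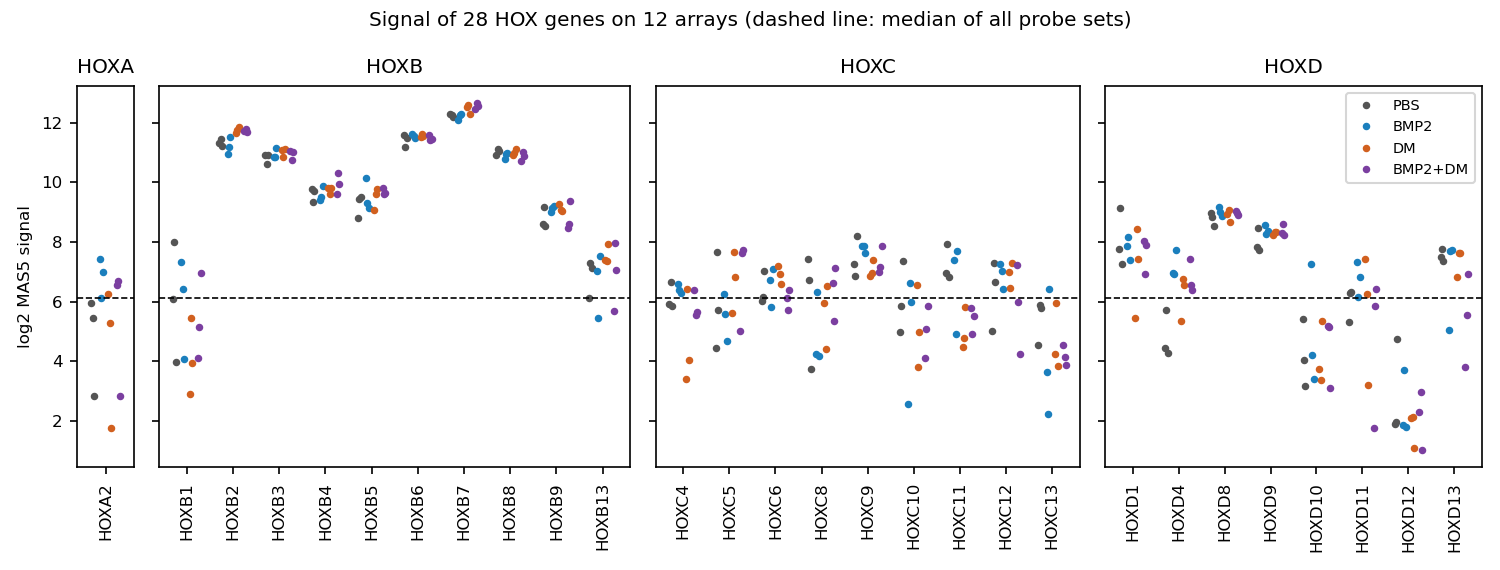
The vertical axis gives the log2 MAS5 signal of each of 28 HOX genes on 12 arrays, with genes in cluster order and arrays coloured by group, and the dashed line is the median of all probe sets, at a signal of 69.8. From HOXB2 to HOXB9 every point lies above the line, whereas most HOXC genes straddle it.

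The cluster B genes other than HOXB1 and HOXB13 formed the bright block. HOXB1 belongs to the group that patterns the hindbrain, and its signal ran from 7.43 to 255 with 4 of 12 arrays above the filter. The geometric mean signals were 2892 for HOXB2, 1952 for HOXB3, 846 for HOXB4, 718 for HOXB5, 2905 for HOXB6, 5304 for HOXB7, 1973 for HOXB8 and 498 for HOXB9. HOXB13, a prostate and tail-bud factor at the far end of the cluster, had a signal of 128 with 9 of 12 arrays above the filter.

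Replicates in cluster B lay close together. The SD between replicates, pooled over the 4 groups, had a median of 0.168 log2 units over the 9 cluster B genes above the filter. This median was 0.74 over the 4 cluster C genes and 0.653 over the 5 cluster D genes, and it was 0.244 over all genes tested. HOXB7 had an SD of 0.11, HOXB6 of 0.12 and HOXB8 of 0.12. HOXC5 had an SD of 1.29, HOXD13 of 1.12 and HOXD1 of 0.97.

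**Figure D2:**
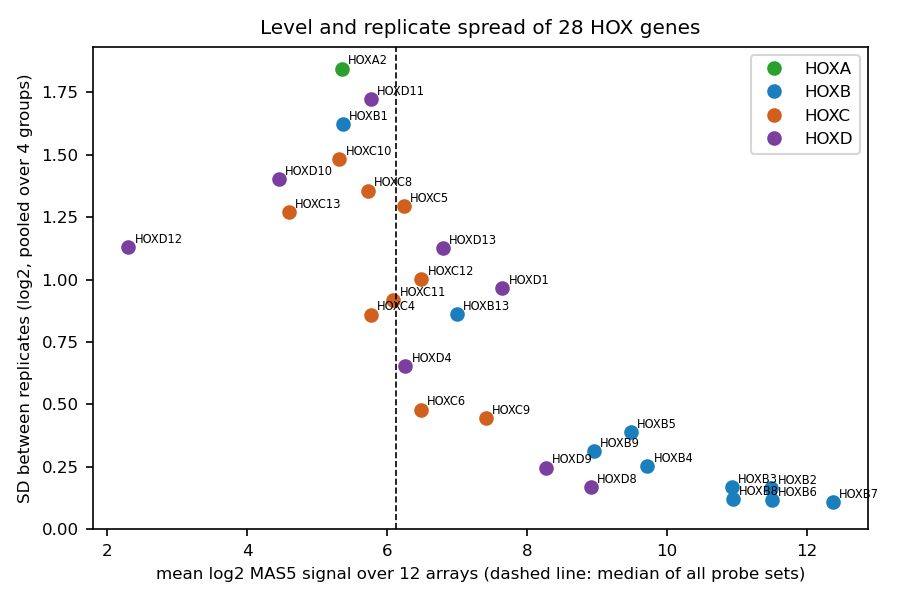
The horizontal axis gives the mean log2 MAS5 signal of each of 28 HOX genes over 12 arrays, and the vertical axis gives the SD of log2 signal between replicates, pooled over 4 groups. Points are coloured by cluster. The cluster B genes from HOXB2 to HOXB9 lie toward the lower right, at SDs such as 0.11 for HOXB7, and HOXB1 and HOXB13 lie apart from them at 1.62 and 0.86. The genes near the dashed filter line have SDs up to 1.29 for HOXC5 above it.

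The comparisons asked what BMP2 did alone, what DM did alone, what DM did in the presence of BMP2, what BMP2 did in the presence of DM, and whether the effects added. They were tested with limma over the 12674 genes above the filter, with Benjamini-Hochberg adjustment and a threshold of 0.05. The groups are cultures of 1 line, so the p-values measure the spread between these cultures. The labels do not say how the biological replicates were separated.

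BMP2 moved no HOX gene past the threshold. In limma's test of BMP2 against PBS, 0 of 18 HOX genes were called, against 0.631% of all genes tested. Of the 18, 1 had an unadjusted p under 0.05, against 10.5% of all genes. The median change over the 18 genes was 0.13 on the log2 scale, and over all genes it was 0.03. HOXB2 changed by -0.11 ± 0.12 (SE), HOXB7 by -0.03 ± 0.10 and HOXB6 by 0.12 ± 0.11. For HOXB7 the 95% interval ran from -0.235 to 0.17, which is 0.85 to 1.13 as a fold.

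HOXB2 and HOXB7 were higher with DM. In BMP2+DM against BMP2, limma called these 2 of 18 HOX genes, both higher, against 7.25% of all genes called in either direction and 4.08% called higher. The other 16 genes were not called. In DM against PBS, 0 of 18 HOX genes were called, against 3.57% of all genes. Of the 18, 2 had an unadjusted p under 0.05, against 16.2% of all genes. These 2 were again HOXB2 and HOXB7. The 2 comparisons share no array, but all 4 groups were modelled at once. Both tests of a gene therefore used the same SE, 0.12 for HOXB2 and 0.10 for HOXB7, so their p-values were not independent. In DM against PBS, 14 of 18 HOX genes had a positive estimate, with a median of 0.23, against 52.6% and a median of 0.02 over all genes. In BMP2+DM against BMP2, 6 of 18 had one, with a median of -0.04, against 53.9% and 0.03.

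Some of the 18 HOX genes tested separated the groups array by array, and their number differed between comparisons. In BMP2+DM against PBS the arrays of 4 HOX genes were higher and those of 1 lower without overlap. Over all genes, 25.8% did not overlap in that comparison. In BMP2+DM against BMP2 the arrays of 2 HOX genes, HOXB2 and HOXB7, did not overlap between groups, as was the case for 25.8% of all genes. In DM against PBS those of HOXB2, HOXB7 and HOXB13 did not overlap, all 3 higher with DM, as was the case for 21.8% of all genes. HOXB13 read 69.1, 158 and 140.1 with PBS and 168, 166 and 242 with DM, and its change of 0.71 ± 0.63 was not called (limma adjusted p = 0.653). The other HOXB13 probe set, also above the filter, gave -1.36 in this comparison.

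HOXB2 encodes a factor of the anterior hindbrain that has also been studied in carcinomas. Its signals were 2526, 2787 and 2362 with PBS, 1975, 2309 and 2909.8 with BMP2, 3192, 3414 and 3668 with DM, and 3388, 3514 and 3262 with BMP2+DM. Every array with DM was above every array without it, the lowest with DM being 3192 and the highest without it 2909.8. BMP2+DM exceeded BMP2 by 0.52 ± 0.12 on the log2 scale, a 1.43-fold difference (limma adjusted p = 0.0156). DM exceeded PBS by 0.42 ± 0.12, a 1.34-fold difference that did not pass (limma adjusted p = 0.0714). In RNA from whole cultures, more cells that express a gene and more RNA per cell cannot be told apart.

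HOXB7 encodes a central-cluster factor known for driving growth and angiogenic factors in ovarian and breast cancer lines. Its signals were 5022, 4867 and 4704 with PBS, 4342, 4915 and 5037 with BMP2, 5881, 6211 and 5034 with DM, and 5671, 6409 and 6007 with BMP2+DM. On this brightest probe set neither DM group overlapped its own control. The third DM array, at 5034, was just above the highest PBS array, at 5022, and below the highest BMP2 array. BMP2+DM exceeded BMP2 by 0.34 ± 0.10 on the log2 scale, a 1.27-fold difference (limma adjusted p = 0.0386). DM exceeded PBS by 0.23 ± 0.10, which did not pass (limma adjusted p = 0.247).

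The calls in BMP2+DM against BMP2 rested in part on 1 array. BMP2 replicate 1, the array with the highest median signal, had the lowest signal of its group for both genes, 1975 for HOXB2 and 4342 for HOXB7. Without it the difference was 0.39 for HOXB2 (limma adjusted p = 0.0768) and 0.28 for HOXB7 (limma adjusted p = 0.144), and 0 of 18 HOX genes were called. Without BMP2+DM replicate 2 the count was also 0. Over the 12 omissions of 1 array, the call on HOXB2 was lost in these 2 and kept in 10, with differences from 0.39 to 0.67. The call on HOXB7 was lost in 9 and kept in 3, those without PBS replicate 1, DM replicate 2 or DM replicate 3, with differences from 0.28 to 0.38 and adjusted p-values from limma between 0.0202 and 0.154.

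The mean of the DM effects without and with BMP2, a contrast added after the data were seen, used all 12 arrays. It called HOXB2 and HOXB7, both higher, of 18 HOX genes, against 12.0% of all genes called and 6.78% called higher. HOXB2 was higher by 0.47 ± 0.09 (limma adjusted p = 0.00166) and HOXB7 by 0.28 ± 0.07 (limma adjusted p = 0.0104). HOXB2 was the 1 HOX gene whose 6 arrays with DM did not overlap its 6 arrays without it, as was the case for 5.78% of all genes. The call on HOXB2 held in each of 21 alternatives and that on HOXB7 in 20 of them.

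HOXB7 was read by 3 probe sets and HOXB2 by 1. On the second HOXB7 probe set the signals were 4562, 4521 and 4568 with PBS, 4323, 4287 and 4440.2 with BMP2, 6014, 5461 and 4467 with DM, and 5714, 5878 and 5714 with BMP2+DM. The third DM array, at 4467, was below all PBS arrays, so DM overlapped PBS on this probe set. In BMP2+DM against BMP2 the log2 difference was 0.34 on the brightest probe set, 0.41 on the second and 0.18 on the third. Averaged over both backgrounds, the DM effect was 0.28, 0.31 and 0.20 in that order, so the 3 probe sets had 1 direction.

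**Figure D3:**
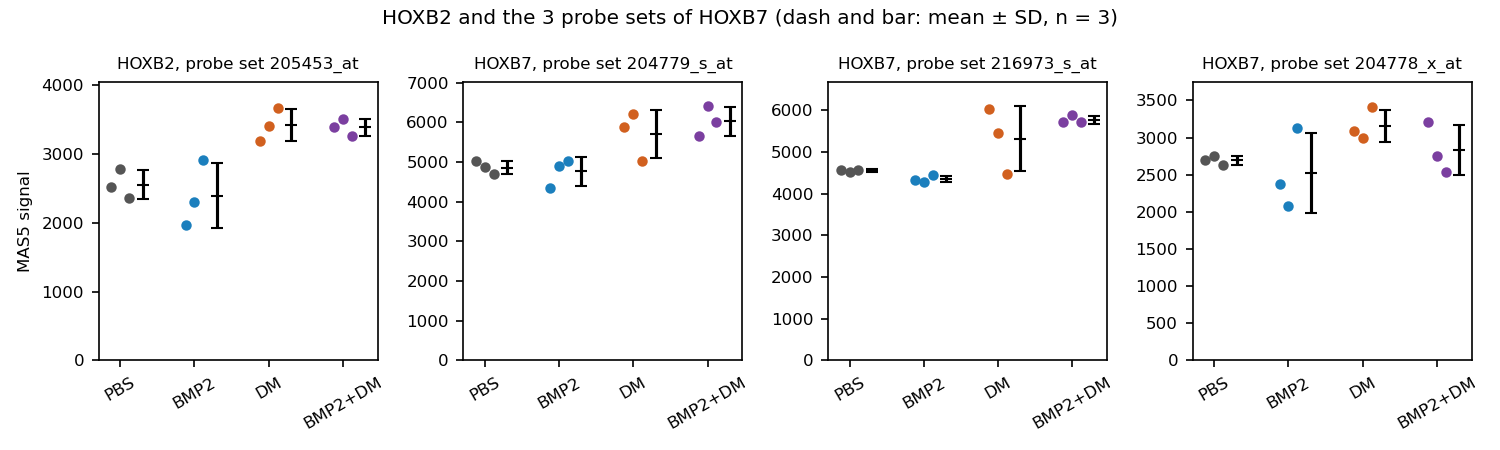
The vertical axes give the linear MAS5 signal, starting at 0, of HOXB2 and of the 3 probe sets of HOXB7, with 3 arrays per group as points and the mean ± SD beside them. The DM and BMP2+DM arrays of HOXB2 lie between 3192 and 3668, above all PBS and BMP2 arrays, and the third DM array falls back to 5034 on the brightest HOXB7 probe set.

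The neighbours of HOXB2 and HOXB7 in the cluster did not pass the test. HOXB6 lies next to HOXB7 and acts in limb and blood development. Its signals were 3067, 2347 and 2893 with PBS, 3131, 2985 and 2844 with BMP2, 2961, 3132 and 3014 with DM, and 3039, 2746 and 2802 with BMP2+DM, and all groups overlapped. The averaged DM effect on HOXB6 was 0.04, with a 95% interval from -0.117 to 0.197.

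HOXB8, on the other side of HOXB7, is known for blocking differentiation of myeloid cells. Its averaged DM effect was -0.02, with a 95% interval from -0.193 to 0.147. The upper bounds for HOXB6 and HOXB8 are below the HOXB2 estimate of 0.47, but the differences between these genes were not tested. HOXB3, next to HOXB2, had an averaged DM effect of 0.10 ± 0.09. HOXB4, a blood stem cell factor, had 0.25 ± 0.13, and HOXB5 had 0.20 ± 0.18.

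HOXB9 is the last gene of the bright block, and its signals were 391, 574 and 376 with PBS, 515, 565 and 594 with BMP2, 623, 535 and 524 with DM, and 351, 387 and 667 with BMP2+DM. The DM effect was 0.35 ± 0.24 without BMP2 and -0.31 ± 0.24 with it, and on the other HOXB9 probe set above the filter it was 0.53 and 0.19. The interaction was -0.66 ± 0.34 and was not called (limma adjusted p = 0.608). Across the 18 HOX genes the interaction was called in 0, against 0.118% of all genes. Its unadjusted p was under 0.05 in 0 of them, against 8.7% of all genes. The interaction was 0.09 ± 0.17 for HOXB2 and 0.12 ± 0.14 for HOXB7.

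**Figure D4:**
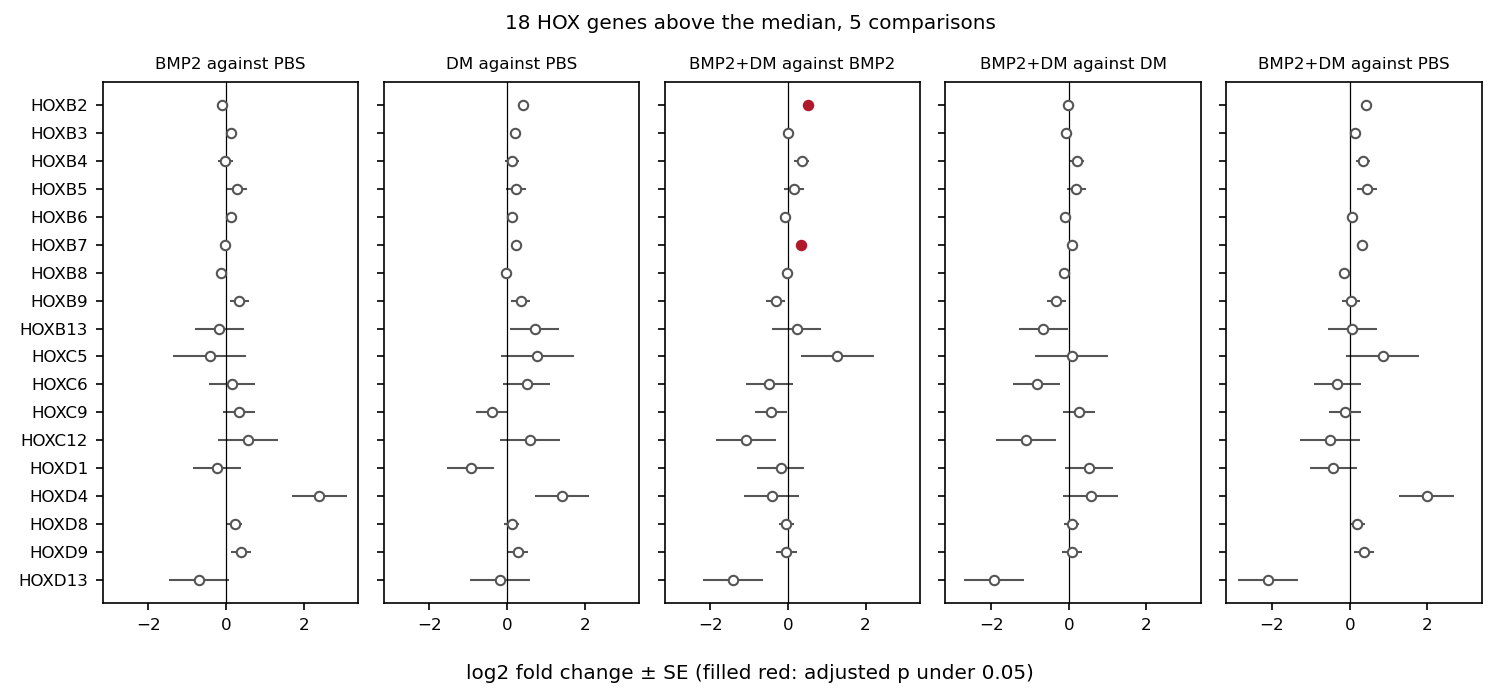
The horizontal axes give the log2 fold change ± SE of the 18 HOX genes above the filter in 5 comparisons, and filled red points have a limma adjusted p under 0.05. HOXB2 and HOXB7 in BMP2+DM against BMP2 are the 2 filled points, and the genes from HOXB13 downward carry wider bars, other than HOXD8 and HOXD9.

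Cluster C was near the filter throughout. HOXC9, a factor of the thoracic region, was its 1 gene above the filter on all 12 arrays. Its signals were 155, 117 and 298 with PBS, 232, 231 and 199 with BMP2, 116, 125 and 168 with DM, and 128, 143 and 233 with BMP2+DM. Its groups overlapped in every comparison, and the mean of the DM effects without and with BMP2 was -0.41 ± 0.29 and was not called (limma adjusted p = 0.414).

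HOXC6, which acts in mammary gland and in prostate cancer, was the 1 HOX gene whose arrays did not overlap between BMP2+DM and DM, as was the case for 15.2% of all genes. Its signals were 146, 121 and 97.7 with DM and 69.5, 52.7 and 84.3 with BMP2+DM. The difference was -0.83 ± 0.60 and was not called (limma adjusted p = 0.755). With PBS it read 65.4, 70.7 and 130.0, and with BMP2 it read 106, 57.0 and 137, so both of those groups overlapped the others. In this comparison 0 of 18 HOX genes were called, against 0.0473% of all genes.

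HOXC12, a gene of the far end of the cluster, read 32.4, 157 and 102 with PBS, 155, 130.3 and 85.3 with BMP2, 127, 88.5 and 156 with DM, and 151, 62.9 and 19.0 with BMP2+DM. The PBS group had 1 array below the filter and the BMP2+DM group had 2. HOXC11, just outside the filter and therefore not among the 18 genes tested, read 125, 247 and 112 with PBS, 169, 30.4 and 206 with BMP2, 22.3, 27.6 and 57.0 with DM, and 54.7, 30.6 and 45.7 with BMP2+DM. All 6 of its DM arrays were dim, and 5 of its 6 other arrays were above the filter. With no filter its averaged DM effect was -1.74, the opposite direction to HOXB2 and HOXB7, and was not called over 19775 genes (limma adjusted p = 0.0807). Without BMP2 replicate 2, the array at 30.4, HOXC11 passed the filter and was called lower, at -2.17 (limma adjusted p = 0.0117). It passed there through the arrays without DM, so this estimate was favoured by the filter. The omission that admitted HOXC11 also removed its only dim array without DM.

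In cluster D, HOXD8 and HOXD9, trunk factors of the middle of the cluster, were above the filter on all 12 arrays. HOXD8 read 506, 454 and 372 with PBS, 573, 508 and 472 with BMP2, 493, 541 and 409 with DM, and 523, 504 and 481 with BMP2+DM. HOXD9 read 226, 358 and 211 with PBS, 384, 307 and 330.4 with BMP2, 299, 322 and 321 with DM, and 312, 387 and 299 with BMP2+DM. Both genes overlapped in every comparison. The averaged DM effect was 0.04 on HOXD8, with a 95% interval from -0.248 to 0.327, and 0.12 on HOXD9, with one from -0.261 to 0.511. With the 2 probe sets of HOXD9 averaged, the other of which was dim, the HOXD9 effect turned to -0.54 and was not called (limma adjusted p = 0.380).

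Toward the far end of the cluster, where limb and genital patterning genes lie, HOXD10, HOXD11 and HOXD12 were dim and HOXD13 was above the filter. HOXD12 was above the filter on 0 of 12 arrays, and its signals ran from 2.05 to 26.8. Promoters from RefSeq on GRCh38.p14, taken as the 250 bases before the gene's start, were present for 11 of the 28 genes. HOXD8, HOXD4 and HOXD12 are shown because they lie in 1 cluster but were above the filter on 12, 8 and 0 of 12 arrays. Capitals mark CANNTG, the E-box core bound by the basic helix-loop-helix proteins that ID proteins sequester.
HOXD8, chr2:176129455-176129704, plus strand: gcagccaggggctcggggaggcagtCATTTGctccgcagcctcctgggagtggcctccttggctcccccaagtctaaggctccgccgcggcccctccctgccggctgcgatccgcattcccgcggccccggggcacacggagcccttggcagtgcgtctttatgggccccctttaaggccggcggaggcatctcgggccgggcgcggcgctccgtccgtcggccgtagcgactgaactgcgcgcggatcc
HOXD4, chr2:176151300-176151549, plus strand: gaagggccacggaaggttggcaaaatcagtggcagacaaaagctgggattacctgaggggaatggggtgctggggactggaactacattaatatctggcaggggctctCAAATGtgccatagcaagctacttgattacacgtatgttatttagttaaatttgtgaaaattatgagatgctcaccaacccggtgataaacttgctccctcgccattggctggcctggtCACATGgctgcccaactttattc
HOXD12, chr2:176099545-176099794, plus strand: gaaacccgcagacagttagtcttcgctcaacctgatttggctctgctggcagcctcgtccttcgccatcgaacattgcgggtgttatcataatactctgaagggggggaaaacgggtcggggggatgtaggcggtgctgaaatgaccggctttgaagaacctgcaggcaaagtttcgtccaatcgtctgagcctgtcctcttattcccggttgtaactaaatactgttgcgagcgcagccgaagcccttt

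The HOXD8 stretch held 1 CANNTG match, that of HOXD4 held 2 and that of HOXD12 held 0. Among all 35116 promoters of that length, 61.8% held at least 1. The palindrome GGCGCC, which matches the GC-rich element bound by BMP-activated SMAD proteins, was in none of these 3 stretches and in 16.4% of all promoters. Both motifs read the same on either strand, and the patterns do not overlap each other in these stretches. The HOXD8 stretch was 72.4% G and C with 28 CpG, the HOXD4 stretch 47.6% with 4, and the HOXD12 stretch 53.2% with 16. The medians over all promoters were 58.0% and 11.

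HOXD4 is an anterior gene whose enhancers answer to retinoic acid. Its signals were 21.8, 52.3 and 19.4 with PBS, 124, 123 and 213 with BMP2, 41.1, 109 and 93.3 with DM, and 173, 93.6 and 84.5 with BMP2+DM. All 3 PBS arrays were below the filter and all 3 BMP2 arrays were above it, and the groups did not overlap, as was the case for 15.0% of all genes. HOXD4 passed the filter through the other groups and not through PBS, so its estimates against PBS were favoured by the filter. The difference was 2.40 ± 0.71 and was not called (limma adjusted p = 0.186). BMP2+DM against PBS gave 1.98 ± 0.71, again not called (limma adjusted p = 0.126). The other HOXD4 probe set, which was dim, gave 0.91 in BMP2 against PBS.

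HOXD13, a limb and genital factor, had low and scattered signals with BMP2+DM. It read 181, 217 and 163 with PBS, 33.4, 209.7 and 215 with BMP2, 112, 198 and 198 with DM, and 14.1, 47.5 and 122 with BMP2+DM. The BMP2+DM arrays at 14.1 and 47.5 were below the filter. HOXD13 passed the filter through the other groups, so its decreases with BMP2+DM were favoured by the filter. BMP2+DM did not overlap PBS, and the difference was -2.10 ± 0.77 and was not called (limma adjusted p = 0.140). Against DM it was -1.92 ± 0.77, also not called (limma adjusted p = 0.481). The other HOXD13 probe sets, both dim, gave -0.82 and -0.54 against PBS and, with the opposite sign, 0.57 and 0.16 against DM. In BMP2+DM against PBS, 5 HOX genes did not overlap, HOXB2, HOXB5, HOXB7 and HOXD4 higher and HOXD13 lower, as was the case for 25.8% of all genes. In that comparison 0 of 18 HOX genes were called, against 4.09% of all genes. Of the 18, 4 had an unadjusted p under 0.05, against 18.7% of all genes.

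HOXD1, the most anterior gene of the cluster, differed widely between replicates, with a pooled SD of 0.97. It read 217, 559 and 153 with PBS, 236, 287 and 169 with BMP2, 44.2, 346 and 174 with DM, and 261, 123 and 241 with BMP2+DM. All its groups overlapped, and DM against PBS gave -0.93 ± 0.61 (limma adjusted p = 0.505). With its probe sets averaged this turned to 0.31 (limma adjusted p = 0.929).

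Noncoding RNAs of the clusters are transcribed between and across the HOX genes, and some recruit chromatin complexes. Of 20 listed, 11 were measured and 7 were above the filter. HAGLR lies in cluster D, and it read 329, 449 and 615 with PBS, 461, 711 and 367 with BMP2, 237, 186 and 199.6 with DM, and 289, 242 and 378 with BMP2+DM. The DM arrays were all below the PBS arrays, and 21.8% of all genes separated these groups in either direction. DM against PBS gave -1.12 ± 0.30 on the log2 scale (limma adjusted p = 0.0431). This call was kept in 10 of 22 alternatives. It was lost without any 1 of the DM arrays, PBS replicate 2, PBS replicate 3 or BMP2+DM replicate 1, with changes from -1.35 to -0.90 over all omissions. Another HAGLR probe set above the filter gave 0.03. In the averaged contrast HAGLR changed by -0.93 (limma adjusted p = 0.00712). No omission of 1 array ended that call, but averaging its probe sets did, at -0.40 (limma adjusted p = 0.592). For the protein-coding genes HOXD8 and HOXD9 of that cluster, DM against PBS gave 0.12 ± 0.19 and 0.29 ± 0.26.

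HOXB-AS3, an antisense transcript of cluster B, read 175, 172 and 196 with PBS, 121, 102 and 103 with BMP2, 185, 229 and 276 with DM, and 215, 212 and 366 with BMP2+DM. Every BMP2 array was below every other array. Over all genes, 15.0% did not overlap between BMP2 and PBS in either direction, and 25.8% did not between BMP2+DM and BMP2. BMP2+DM exceeded BMP2 by 1.24 ± 0.35 (limma adjusted p = 0.0389), a call kept in 11 of 21 alternatives. It was lost without any 1 of the BMP2 or BMP2+DM arrays and without DM replicate 2, at differences from 0.98 to 1.37 over all omissions. In that comparison the other 4 probe sets of HOXB-AS3 gave -0.47, 0.88, -0.39 and 0.60. In BMP2 against PBS they gave -0.18, -1.11, 0.94 and 0.14 in the same order. HOTAIR, transcribed from cluster C, was dim at a geometric mean signal of 5.92, and HOXD-AS2 of cluster D had 711 and was not called.

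**Figure D5:**
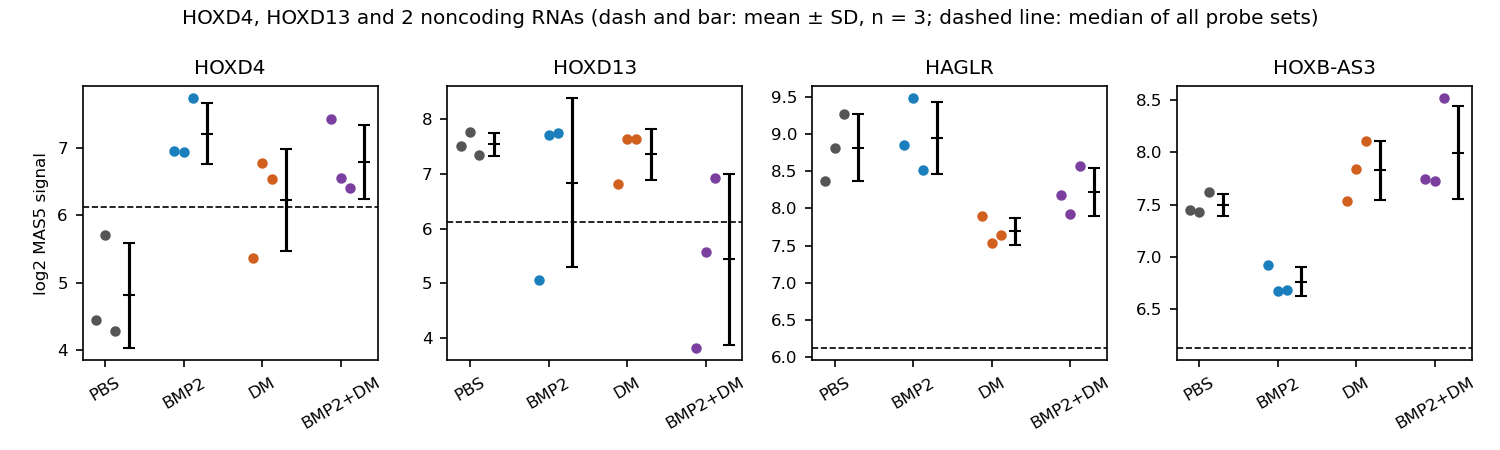
The vertical axes give the log2 MAS5 signal of HOXD4, HOXD13, HAGLR and HOXB-AS3, with 3 arrays per group as points, the mean ± SD beside them and the median of all probe sets as a dashed line where it falls in the panel. The 3 PBS arrays of HOXD4 lie below the line, and the 3 DM arrays of HAGLR lie below its PBS and BMP2 arrays.

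The genes that act with or on HOX genes were mostly not called, as was the case for most genes tested. Of 11 listed TALE partners 9 were tested and 0 were called in any comparison. Over all genes the share called ran from 0.0473% to 7.25%, and it was 12.0% in the averaged contrast. PBX3 had a geometric mean signal of 1274, PBX2 of 936 and MEIS2 of 848, and MEIS1 was close to the filter at 100.5. The 4 measured genes of the CDX and EVX list, homeobox genes that regulate or flank the clusters, were all dim. Of 12 trithorax and related activating genes tested, 0 were called in any comparison, against the same shares.

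Among 23 Polycomb genes tested, PHF19, a PRC2 subunit that reads methylated histone H3, was lower with DM. It was the 1 Polycomb gene called in DM against PBS, against 3.57% of all genes. It read 1388, 1482 and 1281 with PBS, 1324, 1297 and 983 with BMP2, 847, 799.9 and 920.3 with DM, and 924, 878 and 933 with BMP2+DM. All 6 DM arrays were below all other arrays, and 5.78% of all genes separated these arrays in either direction. DM against PBS gave -0.69 ± 0.14 (limma adjusted p = 0.00844), and the call was kept in all 12 omissions of 1 array. It was lost with its probe sets averaged, at -0.31 (limma adjusted p = 0.495), and with each array centred on its median, at -0.64 (limma adjusted p = 0.0564). In BMP2+DM against BMP2 the PHF19 change was -0.39 and was not called. The 1 Polycomb gene called in BMP2+DM against BMP2, against 7.25% of all genes, was PHC2, a PRC1 subunit. PHC2 was higher by 0.50 (limma adjusted p = 0.0359), with the opposite sign when its probe sets were averaged. That call was lost in 4 of 12 omissions, those of BMP2 replicates 2 and 3 and of BMP2+DM replicates 1 and 2, with differences from 0.35 to 0.65 over all omissions. EZH2, the PRC2 methyltransferase, was not called, and its log2 change in that comparison was -0.27 ± 0.15.

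In the retinoic acid pathway, 11 genes were tested, and DM against PBS called 2, both lower, against 3.57% of all genes. BMP2+DM against BMP2 called 0 of the 11, against 7.25% of all genes. ALDH1A3, which makes retinoic acid, read 866, 1010.4 and 803 with PBS, 738, 959 and 928 with BMP2, 543, 528 and 484 with DM, and 603, 541 and 688 with BMP2+DM. All 6 DM arrays were below all other arrays, a separation found in either direction for 5.78% of all genes. DM against PBS gave -0.78 ± 0.17 (limma adjusted p = 0.0120). Without PBS replicate 2 the change was -0.69 and the call was lost (limma adjusted p = 0.0658), as it was with probe sets averaged, at the same rounded change (limma adjusted p = 0.712), and with each array centred on its median (limma adjusted p = 0.0795). DHRS3, which reduces retinaldehyde, gave -2.28 ± 0.56 (limma adjusted p = 0.0305), with 1 DM array, replicate 1, at 25.7. Without that array the change was -1.27, and the call was lost without any 1 of the PBS arrays. It was also lost with no intensity trend (limma adjusted p = 0.155) and when only PBS and DM were fitted (limma adjusted p = 0.0760). Averaging the probe sets of every gene left the DHRS3 change at -2.28, but the call was lost in that fit (limma adjusted p = 0.0955). In the averaged contrast 4 of the 11 genes were called, all lower, against 12.0% of all genes called in either direction. Beside ALDH1A3 and DHRS3 these were the retinol transporter gene STRA6 and the retinoic acid carrier CRABP2, with log2 changes of -1.01 and -1.36. The ALDH1A3 call in this contrast was kept in all 12 omissions but lost with its probe sets averaged, at -0.21 (limma adjusted p = 0.836). The DHRS3 call was lost in 5 of 12 omissions, at changes from -1.70 to -0.93, and with no intensity trend (limma adjusted p = 0.109). The STRA6 call was lost with its probe sets averaged, at -0.14 (limma adjusted p = 0.885). It was also lost without PBS replicate 3, with changes from -1.14 to -0.87 over all omissions. The CRABP2 call was lost in 8 of 12 omissions, at changes from -1.54 to -1.07, and with no filter (limma adjusted p = 0.0688). CRABP2 read 114, 53.2 and 55.4 with DM and 97.3, 96.5 and 28.3 with BMP2+DM, on both sides of the filter. It passed the filter through its arrays without DM, all above it, so this decrease was favoured by the filter.

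Of 10 listed genes that flank the HOX clusters, 7 were tested. The averaged contrast called 1 of the 7 higher and 1 lower, against 12.0% of all genes called in either direction. In the averaged contrast SMUG1, a DNA repair glycosylase beside cluster C, was higher by 0.50 (limma adjusted p = 0.0193), and HIBADH, a valine catabolism enzyme near cluster A, had a log2 change of -0.27 (limma adjusted p = 0.0186). The SMUG1 call was lost without DM replicate 1 or BMP2+DM replicate 2, with values from 0.41 to 0.59 over all omissions. With probe sets averaged it was 0.06 (limma adjusted p = 0.940), and the HIBADH call was also lost (limma adjusted p = 0.0840), as it was with arrays centred on their medians (limma adjusted p = 0.199) and with no intensity trend (limma adjusted p = 0.0732). None of the 7 was called in DM against PBS or in BMP2+DM against BMP2, against 3.57% and 7.25% of all genes. Beside the HOXB2 and HOXB7 results, 4 of the 6 epithelial and SK-OV-3 markers were also higher in the averaged contrast, against 6.78% of all genes, KRT7 by 0.66, KRT18 by 0.26, ERBB2 by 0.22 and KRT19 by 0.20. The part of these markers in the HOX results was not tested.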

How the data were processed

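RNA from 12 SK-OV-3 cultures, labelled biological replicates, was measured on Affymetrix arrays. The authors computed the deposited values with MAS5, per the submitters' processing notes, which give no version. The values are 1 linear intensity per probe set and array, and each array had been scaled to a common level by the authors. Detection calls and a genome build are not given in the sources used here. The number of arrays limits the precision.

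Probe sets were named through the platform annotation: among 54613 probe sets, a single symbol was given for 41091, more than 1 for 1801 and none, for want of a listing, for 11721. Each gene took its brightest probe set with 1 symbol. Signals were set to at least 1 and log2-transformed, genes with a geometric mean below the median of all probe sets (69.8) were left out, and all 4 groups were modelled at once in limma (version 3.58.1, R 4.3.3) with an intensity trend (residual df 8, prior df 9.24). The procedure was tested on simulated data. Adjusted p-values are Benjamini-Hochberg over all 12674 genes tested. Genes were described in detail when they were called, when their arrays did not overlap at an unadjusted p under 0.05, or when they were among the 3 brightest of their cluster. HOXB13, HOXC5, HOXC11, HOXB3, HOXB4, HOXB5, HOXB8 and HOXB9 were added after their values were seen, as were levels of PBX2, PBX3, MEIS1, MEIS2, HOTAIR, HOXD-AS2 and the values of EZH2. Of the other lists, up to 4 genes with the smallest p were eligible to be named. The genes and gene lists were chosen with earlier results of these data known. Replicate numbers did not pair the arrays: over 18 same-numbered pairs, deviations from the group means correlated between -0.0262 and 0.0589.

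Alternatives were quantile normalization, median centring, an offset of 32, no filter, the brightest 30% of probe sets, averaged or separate probe sets, no trend, only the groups compared, the replicate block and leaving out each array. The mean DM effect over both backgrounds was added after the data were seen.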

Additional observations from a re-analysis of the deposited data

How the results depend on the processing

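Counts of HOX genes called were recomputed under 22 alternatives (21 for the interaction and the averaged contrast). BMP2 against PBS, BMP2+DM against DM and the interaction stayed at 0 in all of them. BMP2+DM against BMP2 went from 2 to 0 with each array centred on its median and with no intensity trend, and to 1 (HOXB2) with no filter, when only the groups compared were fitted, and when a gene's probe sets were averaged. Leaving out 1 array gave 0 to 2, with 0 without BMP2 replicate 1 or BMP2+DM replicate 2. The cause was not tested, except that leaving out arrays lowers the number of samples. DM against PBS went from 0 to 1 (HOXB2) without BMP2 replicate 1 or 3, so its range was 0 to 1. BMP2+DM against PBS went from 0 to 1 (HOXB2) when only the groups compared were fitted or only the brightest 30% of probe sets were used, and leaving out 1 array gave 0 to 1. The averaged DM contrast went from 2 to 1 (HOXB2) with no intensity trend. Leaving out 1 array gave 2 to 3, the third being HOXC11, called lower without BMP2 replicate 2. HOXC11 passed the filter there through the arrays without DM, so that call was favoured by the filter.

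With probe sets averaged, HOXD9 and HOXD1 turned sign in DM against PBS, to -0.81 and 0.31, with no call either way. The log2 difference of HOXB2 in BMP2+DM against BMP2 ran from 0.39 to 0.67 and that of HOXB7 from 0.28 to 0.40. For PHC2 in that comparison the mean of its probe sets gave -0.11 (limma adjusted p = 0.948). With the replicate block, BMP2+DM against BMP2 called 2 HOX genes, and the block changed the count of HOX genes called in no comparison. Over all genes the calls ranged from 12 to 99 around 80 in BMP2 against PBS, 176 to 526 around 453 in DM against PBS, 414 to 1045 around 919 in BMP2+DM against BMP2, 2 to 21 around 6 in BMP2+DM against DM, 221 to 732 around 519 in BMP2+DM against PBS, 0 to 42 around 15 for the interaction and 704 to 1623 around 1525 for the averaged contrast. Signals near the filter varied more between replicates, so changes in most genes of clusters C and D were not detectable at this number of arrays unless they were large.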
